A study of Sus scrofa with 6 samples.

Results

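The respiratory chain of mitochondria is built from 5 protein complexes, and most of their subunits are encoded in the nucleus, made in the cytosol and imported. The genes described here are those of the deposited table whose symbols begin with NDUF, SDHA to SDHD, UQCR, COX4 to COX8 or ATP5. This name rule used no measured value and found 81 of the 29861 genes, of which 45 belonged to complex I, 7 to complex II, 2 to complex III, 10 to complex IV and 17 to complex V. RNA was sequenced from porcine oocytes in 3 groups of 2 samples each: control, heat stress, and heat stress+NMN, where NMN (nicotinamide mononucleotide, a precursor of NAD) was added to the culture under heat. The labels give the stage as GV with a time of 24 h for all 6 samples, whereas the methods describe oocytes at metaphase II that had been matured in cumulus-oocyte complexes from abattoir ovaries, with many oocytes pooled for each RNA extraction. The heat-stressed groups were cultured at a raised temperature and the control group was not. Neither source says whether the 2 samples of a group came from separate cultures or animals, so P-values measure the spread between these samples, which may be technical.

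Electrons from NADH enter the chain at complex I (NADH dehydrogenase) and those from succinate at complex II (succinate dehydrogenase), pass through complex III (the cytochrome b-c1 complex) and complex IV (cytochrome c oxidase) to oxygen, and the proton gradient that results drives complex V (ATP synthase). Complex I has a core of conserved subunits that carry its flavin and iron-sulfur centres or pump protons, and a larger set of accessory subunits around them, while assembly factors help to build it and are absent from the finished enzyme. Fully grown oocytes hold many mitochondria and depend on stored maternal mRNA during maturation.

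The values are FPKM, the number of fragments of a gene per length of its transcript and per depth of the sample, and they were deposited by the authors for each sample. As FPKM is per length, levels could be set side by side between genes, but it is also relative to the depth of each sample. The 6 samples differed in their summed FPKM and in what made it up. Mitochondrially encoded genes made up 61.7% to 66.4% of the summed FPKM in control samples, 62.4% and 71.6% under heat stress and 74.2% and 74.7% under heat stress+NMN. The depth behind the values is unknown. The oocyte markers BMP15, GDF9 and MOS were at high levels in every sample, with a sum over 11 listed oocyte markers of 2726 to 3441 FPKM. Of these 11, 9 had a mean of at least 1 FPKM, and the others were below it. The 17 listed cumulus and granulosa markers summed to 5.68 to 17.8 FPKM. Among them INHBA was at 4.35 to 16.4, and 3 of the 17 (AMH, AMHR2 and INHA) were listed at 0 in all 6. Heat stress replicate 1 stood apart by the highest summed FPKM, 290136 against 163929 to 239211 in the other samples, so calls among the 81 genes that were lost without it are named. Fewer oocytes and less RNA per oocyte cannot be told apart in such bulk samples.

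Most of the 81 genes were at a low level in the oocytes. Only 19 had a mean of at least 1 FPKM over the 6 samples, 42 lay between 0.1 and 1, and 20 were under 0.1. That is a share of 23.5% at or above 1, next to 15.8% of all genes in the table and 20.1% of the protein-coding ones. In 25 of the 81 genes at least 1 sample was listed at 0, and NDUFAF3, an assembly factor of complex I, was listed at 0 in all 6 samples. The split at 1 fell between NDUFC2, with a mean of 1.15 FPKM, and NDUFB10, with 0.993, so genes on either side of it differed little there.

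The complexes differed in how many of their genes were above that level. Complex I had 8 of 45 (17.8%), complex II 3 of 7 (42.9%), complex III 1 of 2, complex IV 2 of 10 (20%) and complex V 5 of 17 (29.4%). The median of the gene means was 0.154 FPKM for complex I, 0.828 for complex II, 2.62 for complex III, 0.313 for complex IV and 0.492 for complex V. These shares are a description of genes that were listed under their symbols, and differences between complexes were not tested, since genes of a complex are not replicates.

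**Figure D1:**
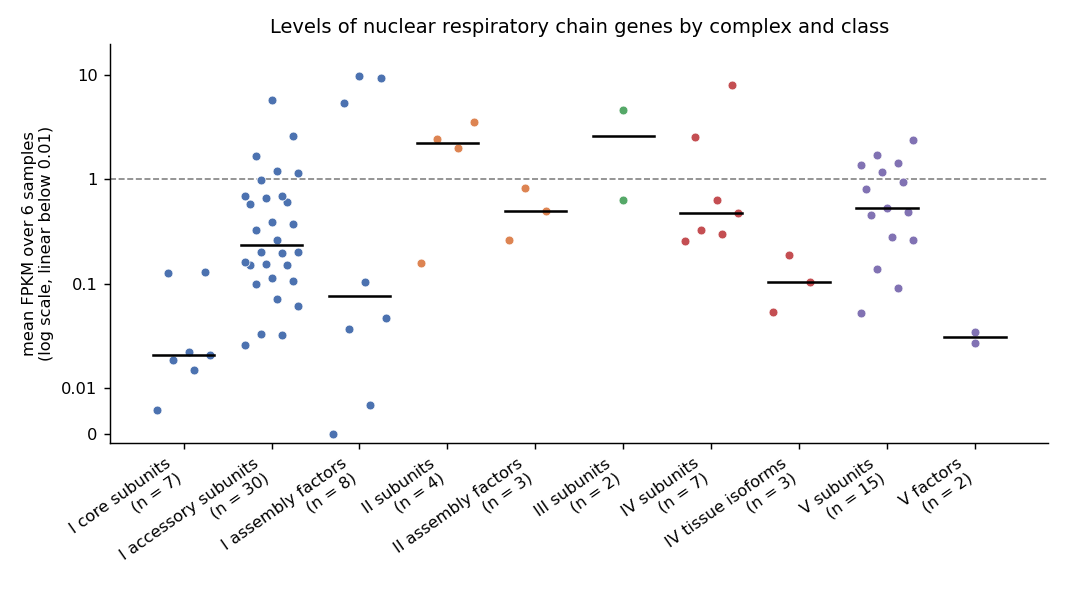
Mean FPKM over 6 samples (vertical axis, log scale, linear below 0.01) of each of the 81 genes (points), by complex and class, with the median of each class as a black bar and a dashed line at 1 FPKM. All 7 core subunits of complex I sit below 0.2 FPKM, while 3 of its 8 assembly factors sit above 5.

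In complex I the classes of genes had overlapping ranges of levels. The 7 nuclear core subunits, which carry the flavin and the iron-sulfur clusters, had means of 0.00526 to 0.129 FPKM, and 6 of the 7 had a sample listed at 0. Their summed level was 0.497 and 0.560 FPKM in control, 0.242 and 0.452 in heat stress and 0.108 and 0.166 in heat stress+NMN samples. The 30 accessory subunits had a median of 0.232 FPKM, and 5 of them were at or above 1. The 8 assembly factors had a median of 0.0756 and were split, with NDUFAF1, NDUFAF4 and NDUFAF7 at 5.45 to 9.81 FPKM and the other 5 (NDUFAF2, NDUFAF3, NDUFAF5, NDUFAF6 and NDUFAF8) at 0 to 0.105.

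NDUFAF1 was the highest of all 81 genes. This factor takes part in assembling the membrane arm of complex I, and its FPKM was 8.27 and 13.8 in control, 10.2 and 8.19 in heat stress and 9.24 and 9.18 in heat stress+NMN samples. NDUFAF4, another assembly factor, followed with a mean of 9.39, and COX7C, a small subunit of complex IV, with 8.09. The values of these 3 genes over the samples overlapped, so their order is not resolved. NDUFA1, an accessory subunit needed for complex I assembly, came next with a mean of 5.78 FPKM, then NDUFAF7 (5.45), UQCRB (4.6) and SDHD (3.56).

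Outside complex I, the highest genes of each complex were subunits. In complex II, SDHB, SDHC and SDHD were at 2.0 to 3.56 FPKM, whereas SDHA, which binds FAD and oxidises succinate, was at 0.159. The assembly factors SDHAF1, SDHAF2 and SDHAF3 were at 0.828, 0.497 and 0.260. In complex III, UQCRB was at 4.6 and UQCR10 at 0.637. In complex IV, COX7C and COX6A1 were at 8.09 and 2.58 FPKM, the other listed subunits COX5B, NDUFA4, COX7A2, COX6B and COX6C at 0.257 to 0.638, and the tissue isoforms COX7A1, NDUFA4L2 and COX8H at 0.0530 to 0.189. NDUFA4 was named for complex I but is a subunit of complex IV, and it was counted there. In complex V, the catalytic core genes ATP5A1 and ATP5B were at 0.954 and 0.260, and the highest were ATP5L (2.38), ATP5G3 (1.72), ATP5G2 (1.43), ATP5D (1.39) and ATP5C1 (1.18). The other 8 subunits of complex V (ATP5E, ATP5F1, ATP5G1, ATP5H, ATP5I, ATP5J, ATP5J2 and ATP5O) lay between 0.0522 and 0.802. ATP5S and ATP5SL, which were counted with complex V by their symbols alone, were at 0.0345 and 0.0267.

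Some subunits were not found by the rule because the annotation lists them under LOC identifiers. By their RefSeq product names, 22 further subunits and 11 assembly factors were in the table, a list that was added after the values were seen. Of the 22 subunits, 6 had a mean of at least 1 FPKM, as had 7 of the 11 factors. The highest subunits were 7A-related (LOC100516606), 8A (LOC100522725) and 8C (LOC100157935) of complex IV. Their means were 14.1, 12.7 and 12.3 FPKM, above all 81 genes of the rule. Others were low, as 4 isoform 1 (0.197) and 5A (0.103) of complex IV and subunits 1 (0.0634) and 2 (0.0116) of complex III. Some, such as 4 isoform 2 of complex IV, were listed at 0 in all 6 samples. Counts by complex, and above all the low counts for complexes III and IV, therefore describe named genes and not whole complexes.

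The 19 genes with a mean of at least 1 FPKM were compared between the groups in a single linear model fitted with limma to all 4713 genes at that level, on log2(FPKM + 1), which makes fold changes of low genes smaller than the ratios of their FPKM. With 2 samples per group, an exact permutation test of a single gene could not give a P below 0.333, whereas limma borrows information on the variance from all genes. A gene is called where its unadjusted P was under 0.05, and adjusted P-values (Benjamini-Hochberg over all 4713 genes) are given beside it.

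The first question was what heat stress changed. Compared to control, 6 of the 19 genes were called and lower in heat-stressed oocytes: NDUFA6 and NDUFB11 of complex I, COX6A1 and COX7C of complex IV, and ATP5D and ATP5G3 of complex V. The background was 10.1% of all 4713 tested genes called lower and 12.7% called higher, against 6 of 19 lower and 0 higher here. None of the 4 tested genes of complexes II and III was called, and the 3 tested assembly factors were not called either. No gene of the 19, nor any of all tested genes, had an adjusted P under 0.05 in this comparison. The 6 calls became 3 without control replicate 2 and 3 without heat stress replicate 1, and 7 without control replicate 1. With samples scaled to the same sum of nuclear FPKM the count was 6 again, but COX7C was not in it, although its log2 fold change was then -0.69 instead of -0.36. Under that scaling 34 of all 4713 tested genes were called higher and 528 lower.

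Across the 19 genes, 15 were lower and 4 higher in heat stress, with a median log2 fold change of -0.21, while the median of all tested genes was 0.05. By complex, the median was -0.11 for the 8 genes of complex I, -0.21 for the 3 of complex II, -0.09 for UQCRB of complex III, -0.52 for the 2 of complex IV and -0.37 for the 5 of complex V. The median over the 19 genes was -0.36 without control replicate 1 and -0.088 without control replicate 2. Among the 16 subunits 14 were lower, and of the 3 assembly factors 1 was lower.

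The second question was what NMN changed under heat. Between heat stress+NMN and heat stress, 3 of the 19 genes were called: COX7C and ATP5G2 were lower and NDUFAF7 was higher with NMN. The background was 6.45% called lower and 7.15% called higher, so 2 of 19 lower and 1 of 19 higher were near it. The count at an adjusted P under 0.05 was again 0, for the 19 genes and for all genes, and with samples scaled to the same sum of nuclear FPKM 0 of the 19 were called at the unadjusted P too. The median log2 fold change was -0.08 over the 19 genes and 0.08 over all tested genes, and 0.014 over the 19 without heat stress+NMN replicate 2. Of the 6 genes called lower in heat stress, only COX7C was called in this comparison, and it was lower again. The call of NDUFAF7 stood under 4 of 10 alternatives and was lost with no minimum, a minimum of 5 FPKM, quantile normalization, scaling to the same median or to the same sum of nuclear FPKM, and a fit of the compared groups alone. It was also lost when any of 5 of the 6 samples was left out, and it stood without heat stress replicate 2. Its log2 fold change was 0.42 without either control sample, 0.21 without heat stress replicate 1, 0.47 without heat stress+NMN replicate 1 and 0.36 without heat stress+NMN replicate 2, against 0.42 in all samples.

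The third comparison set heat stress+NMN against control. Here 8 of the 19 genes were called lower (NDUFA6, NDUFB11, NDUFC2, COX6A1, COX7C, ATP5D, ATP5G2 and ATP5G3) and 1 was called higher (NDUFAF7). The background was 15.7% lower and 25.6% higher. NDUFC2, 1 of the 8, passed the minimum of 1 FPKM only through the control group, which favoured its call. With an adjusted P under 0.05 there were 5 of 19, all lower (NDUFA6, COX6A1, COX7C, ATP5D and ATP5G2), where 9.17% of all tested genes were lower and 12.4% higher. The count at an adjusted P under 0.05 was 0 of 19 without control replicate 2, without heat stress+NMN replicate 1 and without heat stress+NMN replicate 2, and 3 without control replicate 1. It was 1 with samples scaled to the same sum of nuclear FPKM and 0 when all genes with a mean of at least 0.1 FPKM were tested. The median log2 fold change was -0.30 over the 19 genes and 0.11 over all tested genes. It was -0.21 in complex I, -0.21 in complex II, -0.30 in complex III, -0.94 in complex IV and -0.48 in complex V. Without control replicate 1 the median over the 19 genes was -0.53, and without control replicate 2 it was -0.17. This comparison shares its control samples with the first and its NMN samples with the second, so the 3 comparisons are not independent of each other.

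**Figure D2:**
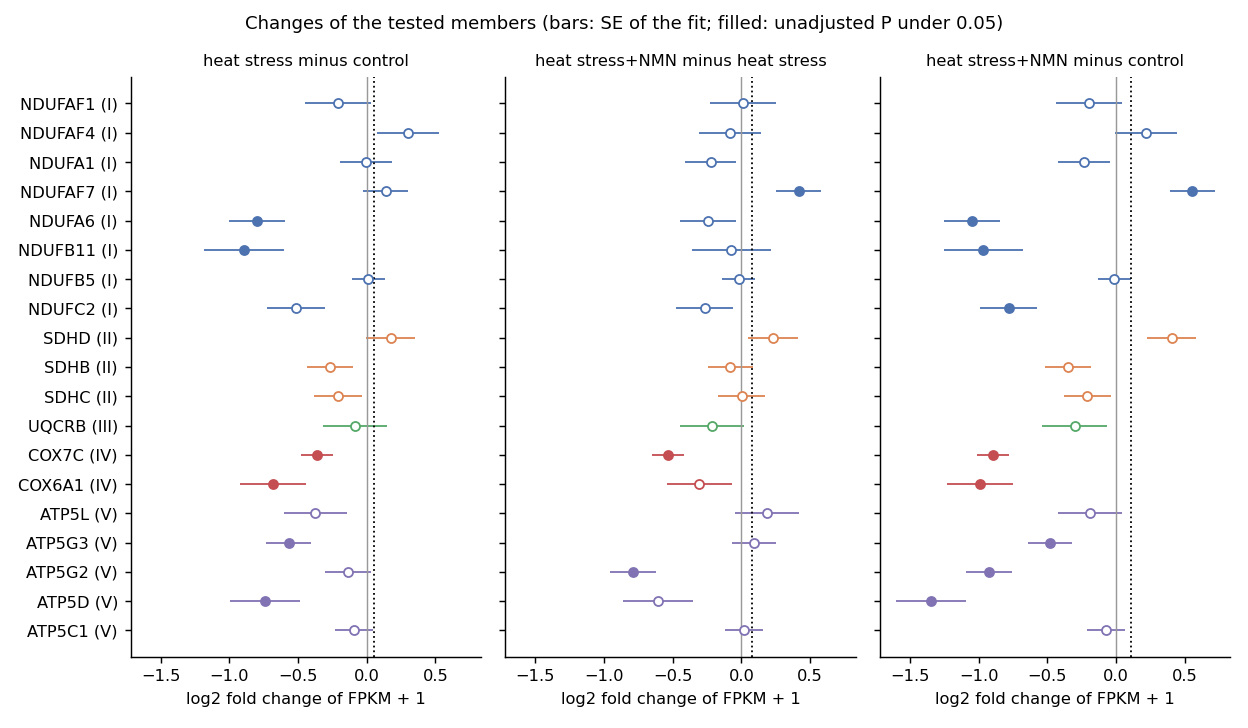
Log2 fold change of FPKM + 1 (horizontal axis) of the 19 tested genes in the 3 comparisons, coloured by complex, with the standard error of the limma fit as bars, filled points for an unadjusted P under 0.05 and a dotted line at the median of all tested genes. The filled points lie below 0 except NDUFAF7.

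The upstream sequences of the 5 genes that passed the adjusted test are shown because the nuclear genes of the chain are known to be regulated through sites for NRF1, GABPA (NRF2) and YY1, besides the common promoter elements bound by SP1 and NF-Y. They are the 250 bases before the annotated start in the Sscrofa11.1 assembly of RefSeq, read 5′ to 3′ on the strand of the gene, and none of the 5 windows overlaps another annotated gene. Capitals mark exact matches on either strand to GCGCATGC (NRF1), CCGGAAGT (GABPA), AAGATGGC (YY1), GGGCGG (SP1) or CCAAT (NF-Y), and in COX6A1 an SP1 and an NF-Y match overlap. The windows are chr5:6561824-6562073 on the plus strand for NDUFA6, chr14:40408350-40408599 plus for COX6A1, chr2:94345186-94345435 plus for COX7C, chr2:77219302-77219551 minus for ATP5D and chr5:18879934-18880183 minus for ATP5G2.
NDUFA6: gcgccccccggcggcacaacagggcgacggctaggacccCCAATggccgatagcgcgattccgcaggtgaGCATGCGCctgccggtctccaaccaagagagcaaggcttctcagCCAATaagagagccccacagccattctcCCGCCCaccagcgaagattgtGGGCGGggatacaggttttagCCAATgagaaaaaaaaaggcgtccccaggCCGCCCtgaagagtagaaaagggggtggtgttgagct
COX6A1: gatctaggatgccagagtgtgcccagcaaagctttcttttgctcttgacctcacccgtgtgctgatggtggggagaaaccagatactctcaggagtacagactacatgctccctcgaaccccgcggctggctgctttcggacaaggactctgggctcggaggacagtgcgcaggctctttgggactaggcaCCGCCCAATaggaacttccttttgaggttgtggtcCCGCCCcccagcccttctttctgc
COX7C: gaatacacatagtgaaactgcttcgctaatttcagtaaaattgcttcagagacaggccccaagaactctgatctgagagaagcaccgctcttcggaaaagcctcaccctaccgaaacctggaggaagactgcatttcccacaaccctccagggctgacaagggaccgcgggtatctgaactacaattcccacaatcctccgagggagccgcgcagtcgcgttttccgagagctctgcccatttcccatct
ATP5D: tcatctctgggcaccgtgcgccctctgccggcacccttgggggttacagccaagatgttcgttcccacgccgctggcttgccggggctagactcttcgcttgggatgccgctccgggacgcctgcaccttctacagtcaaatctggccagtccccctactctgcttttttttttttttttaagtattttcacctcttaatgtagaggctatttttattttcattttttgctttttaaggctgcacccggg
ATP5G2: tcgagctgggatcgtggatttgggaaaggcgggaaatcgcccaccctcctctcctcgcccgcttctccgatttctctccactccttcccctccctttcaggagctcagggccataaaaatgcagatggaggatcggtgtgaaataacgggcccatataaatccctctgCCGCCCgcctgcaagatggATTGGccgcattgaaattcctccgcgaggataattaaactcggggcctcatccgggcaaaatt

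NDUFA6 held 1 NRF1 match, 3 NF-Y and 3 SP1 matches, COX6A1 and ATP5G2 held SP1 and NF-Y matches, and the windows of COX7C and ATP5D held none of the 5 motifs. Over all 81 genes, 8 windows (9.88%) held the NRF1 motif, those of NDUFA6, NDUFB11, NDUFS6, NDUFS7, NDUFA5, NDUFB4, ATP5I and ATP5O, whereas 2.21% of the 20631 windows of protein-coding genes in the table did. The GABPA motif was in 6 windows (7.41%) against 2.74% and the YY1 motif in 4 (4.94%) against 1.46%. SP1 matches were in 58% of the 81 windows and in 44.5% of all, and NF-Y matches in 29.6% and 32%. Split by level, the NRF1 motif was in 2 of the 19 windows of genes at or above 1 FPKM (10.5%) and in 6 of the 62 below it (9.68%). A match is a string of letters and not a bound site, and the windows end before the transcribed part, where YY1 sites can also lie. These shares were not tested.

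In complex IV both tested subunits were lower in the heated groups. COX7C lies on chromosome 2 (94345436 to 94347709, plus strand, Sscrofa11.1), is alone at its locus in the table, and had an FPKM of 10.8 in both control samples, 7.82 and 8.51 in heat stress and 5.0 and 5.66 in heat stress+NMN samples. The 3 groups of COX7C did not overlap and stepped down from control to heat stress to heat stress+NMN. Its log2 fold change was -0.36 ± 0.12 (SE, n = 2 against 2, adjusted P = 0.176 by limma) in heat stress against control, -0.53 ± 0.12 (adjusted P = 0.222) in heat stress+NMN against heat stress, and -0.90 ± 0.12 (adjusted P = 0.0210) in heat stress+NMN against control. With samples scaled to the same sum of nuclear FPKM the change of COX7C between the heated groups was -0.21 (adjusted P = 0.764 by limma) and was not called. The call of COX7C in heat stress against control was lost without control replicate 1 or 2, where the log2 fold change stayed at -0.36, and without heat stress replicate 1, where it was -0.31.

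COX6A1, on chromosome 14, encodes the form of subunit 6A that most tissues use. Its FPKM was 3.40 and 4.69 in control, 1.82 and 2.45 in heat stress and 1.097 and 2.03 in heat stress+NMN samples, with control above all 4 heated samples and the heated groups overlapping. Its log2 fold change was -0.68 ± 0.24 in heat stress (adjusted P = 0.190 by limma) and -0.99 ± 0.24 in heat stress+NMN (adjusted P = 0.0412), both against control. The former call was lost without control replicate 2 (log2 fold change -0.50) and without heat stress replicate 1 (-0.54). COX8A, listed as LOC100522725, was alike in its direction, with 17.4 and 21.2 FPKM in control, 10.7 and 11.01 in heat stress and 8.31 and 7.34 in heat stress+NMN samples. The log2 fold change of COX8A was -0.77 ± 0.14 in heat stress (adjusted P = 0.111 by limma) and -1.20 ± 0.14 in heat stress+NMN (adjusted P = 0.0210), both against control. The complex IV subunits 7A-related (11.97 to 16.6 FPKM) and 8C (9.37 to 14.95 FPKM), also under LOC identifiers, overlapped between the groups and were not called.

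In complex V the tested genes split into those that fell and those that were not called. ATP5D, on chromosome 2, encodes the delta subunit of the central stalk, and its FPKM was 1.75 and 3.56 in control, 1.31 and 0.942 in heat stress and 0.412 and 0.369 in heat stress+NMN samples. The groups did not overlap, and control was the more variable. Its log2 fold change was -0.74 ± 0.26 in heat stress (adjusted P = 0.189 by limma) and -1.35 ± 0.26 in heat stress+NMN (adjusted P = 0.0279), both against control, which was the strongest change among the 19 genes. Between the heated groups the log2 fold change of ATP5D was -0.61 ± 0.26 (adjusted P = 0.375 by limma), which was not called in all samples but was without control replicate 1 and without control replicate 2. The call in heat stress against control was lost without control replicate 2 (log2 fold change -0.38) and without heat stress replicate 2 (-0.62).

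ATP5G1, ATP5G2 and ATP5G3 encode precursors of the same mature protein, subunit c of the membrane ring, so reads of the 3 genes may in part have been assigned among them. ATP5G2 had an FPKM of 1.89 and 2.08 in control, 2.11 and 1.37 in heat stress and 0.653 and 0.493 in heat stress+NMN samples, so the 2 heat stress+NMN samples lay below the other 4. For ATP5G2 the log2 fold change was -0.14 ± 0.17 in heat stress against control, which was not called, -0.79 ± 0.17 in heat stress+NMN against heat stress (adjusted P = 0.222 by limma) and -0.93 ± 0.17 against control (adjusted P = 0.0267). With samples scaled to the same sum of nuclear FPKM its change between the heated groups was -0.59 (adjusted P = 0.584 by limma) and was not called. ATP5G3 showed another order, with 2.29 and 2.52 in control, 1.62 and 1.01 in heat stress and 1.44 and 1.45 FPKM in heat stress+NMN samples. Control was above all heated samples, and the log2 fold change was -0.57 ± 0.16 in heat stress (adjusted P = 0.149 by limma) and -0.48 ± 0.16 in heat stress+NMN (adjusted P = 0.0832), both against control. The call of ATP5G3 in heat stress was lost without control replicate 2 (-0.52) and without heat stress replicate 2 (-0.38). In heat stress+NMN against control the call of ATP5G3 was lost when either control or either heat stress+NMN sample was left out, with log2 fold changes of -0.53 to -0.43. It was also lost with samples scaled to the same sum of nuclear FPKM (-0.49, adjusted P = 0.527 by limma).

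The remaining 2 tested genes of complex V, ATP5L and ATP5C1, were not called. ATP5L, subunit g of the membrane part, had 2.12 and 3.61 FPKM in control, 1.72 and 2.14 in heat stress and 2.75 and 1.96 in heat stress+NMN samples. ATP5C1, the gamma subunit whose turning couples the ring to catalysis, had 1.30 and 1.21, 1.19 and 1.04, and 1.34 and 0.972 in the same groups. The groups of ATP5L overlapped. The control samples of ATP5C1 lay above its heat stress samples, by little, and its heat stress+NMN samples lay on either side of all of these. The log2 fold changes of ATP5C1 lay between -0.09 and 0.02 in the 3 comparisons, with a standard error of 0.14, and those of ATP5L between -0.37 and 0.19, with a standard error of 0.23. Without control replicate 1, ATP5L was called lower in heat stress (-0.66). ATP5L shares its locus in the table with UBE4A and LOC102167309, and ATP5C1 with LOC110255717.

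In complex I, 2 of 5 tested accessory subunits and none of the 3 tested assembly factors were called in heat stress against control, a difference that was not tested. NDUFA6, on chromosome 5 (6562074 to 6567321, plus strand), is an accessory subunit that binds the mitochondrial acyl carrier protein, and its FPKM was 3.40 and 5.11 in control, 1.71 and 2.26 in heat stress and 1.69 and 1.34 in heat stress+NMN samples. Control lay above all heated samples, whose groups did not overlap but were close. The log2 fold change was -0.80 ± 0.20 in heat stress (adjusted P = 0.137 by limma) and -1.05 ± 0.20 in heat stress+NMN (adjusted P = 0.0287), both against control. NDUFA6 was the only one of the 6 genes called in heat stress whose call stood under all 15 alternatives that tested it, with log2 fold changes of -1.05 to -0.57.

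NDUFB11, an accessory subunit of the membrane arm encoded on the X chromosome, had an FPKM of 3.48 and 2.33 in control, 0.587 and 1.73 in heat stress and 0.961 and 0.995 in heat stress+NMN samples. Control lay above the heated samples, and the 2 heat stress samples differed the most. Log2 fold changes were -0.89 ± 0.29 in heat stress (adjusted P = 0.179 by limma) and -0.97 ± 0.29 in heat stress+NMN (adjusted P = 0.0639), both against control. The former call was lost without control replicate 1 (log2 fold change -0.68) and without heat stress replicate 1 (-0.50), and the latter without control replicate 1 (-0.75), heat stress+NMN replicate 1 (-0.95) or heat stress+NMN replicate 2 (-0.98). NDUFB11 shares its table locus with RBM10, and its window upstream overlaps that gene.

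NDUFC2, an accessory subunit of the membrane arm, had 2.30 and 1.38 FPKM in control, 0.753 and 1.19 in heat stress and 0.715 and 0.549 in heat stress+NMN samples. On the log2 scale the change was -0.51 ± 0.21 in heat stress (adjusted P = 0.223 by limma) and -0.78 ± 0.21 in heat stress+NMN (adjusted P = 0.0509), both against control. NDUFC2 passed the minimum of 1 FPKM only through the control group, where it was high, which favoured a call lower than control. The call in heat stress+NMN was lost without control replicate 1 (-0.55) and without heat stress+NMN replicate 2 (-0.71). In heat stress against control NDUFC2 was not called in all samples but was without control replicate 2 (-0.75) and without heat stress replicate 2 (-0.68). The other 2 accessory subunits were not called. NDUFA1 had 5.80 and 6.43 FPKM in control, 7.15 and 5.13 in heat stress and 5.74 and 4.44 in heat stress+NMN samples. NDUFB5, of the membrane arm, varied the least of the 19 genes, at 1.21 in both control samples, 1.14 and 1.31 in heat stress and 1.28 and 1.12 in heat stress+NMN samples, and its log2 fold changes lay between -0.02 and 0.01 with a standard error of 0.12.

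Among the assembly factors, NDUFAF7, a methyltransferase of the mitochondrial matrix, had 4.41 and 4.39 FPKM in control, 4.16 and 5.85 in heat stress and 6.63 and 7.25 in heat stress+NMN samples. The heat stress+NMN samples lay above the other 4, with a log2 fold change of 0.56 ± 0.16 against control (adjusted P = 0.0626 by limma) and 0.42 ± 0.16 against heat stress (adjusted P = 0.360). Against control the call was lost without control replicate 1 (0.56), control replicate 2 (0.55) or heat stress+NMN replicate 2 (0.50). With samples scaled to the same sum of nuclear FPKM the change of NDUFAF7 against control was 0.58 (adjusted P = 0.507 by limma) and was not called. NDUFAF7 shares its table locus with PRKD3 and LOC102162733. NDUFAF4 had 7.99 and 8.22 FPKM in control, 10.04 and 10.4 in heat stress and 12.3 and 7.41 in heat stress+NMN samples, and NDUFAF1 is given above. Neither was called in any of the 3 comparisons. Without control replicate 1, NDUFAF1 was called lower than control in heat stress (-0.54) and in heat stress+NMN (-0.53). NDUFAF4 was called in heat stress+NMN against heat stress without heat stress+NMN replicate 1 (-0.41) and, with the opposite sign, in heat stress+NMN against control without heat stress+NMN replicate 2 (0.55), the 2 samples that differed the most.

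The 4 tested genes of complexes II and III, SDHB, SDHC, SDHD and UQCRB, were not called. SDHB, the iron-sulfur subunit of complex II, had 2.44 and 3.57 FPKM in control, 2.37 and 2.21 in heat stress and 2.21 and 2.02 in heat stress+NMN samples. SDHC and SDHD anchor the enzyme in the membrane, and SDHC had 1.93 and 2.67, 2.16 and 1.55, and 1.90 and 1.78 FPKM in the same groups. SDHD had 2.71 and 3.19 in control, 3.16 and 3.75 in heat stress and 5.04 and 3.51 in heat stress+NMN samples. The control samples of SDHB lay above all heated samples, 1 of them only just, and SDHC and SDHD overlapped between control and heat stress. Without control replicate 1, SDHB was called lower than control in heat stress (-0.47) and in heat stress+NMN (-0.55). SDHD was the one of the 16 tested subunits with a positive log2 fold change against control in both heated groups, 0.17 ± 0.18 in heat stress and 0.41 ± 0.18 in heat stress+NMN (adjusted P = 0.150 by limma, and called at 0.62 without heat stress+NMN replicate 2). UQCRB, which binds ubiquinone in complex III, had 4.91 and 5.18 FPKM in control, 3.79 and 5.77 in heat stress and 4.83 and 3.13 in heat stress+NMN samples, with the heat stress samples on either side of both control samples and the heat stress+NMN samples below them. Subunit 8 of the same complex, listed as LOC100524308, had 3.80 and 7.37, 2.36 and 2.89, and 0.925 and 1.33 FPKM, and was called lower in all 3 comparisons. Its log2 fold change was -0.81 ± 0.28 in heat stress against control (adjusted P = 0.190 by limma), -0.77 ± 0.28 in heat stress+NMN against heat stress (adjusted P = 0.354) and -1.58 ± 0.28 in heat stress+NMN against control (adjusted P = 0.0254).

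**Figure D3:**
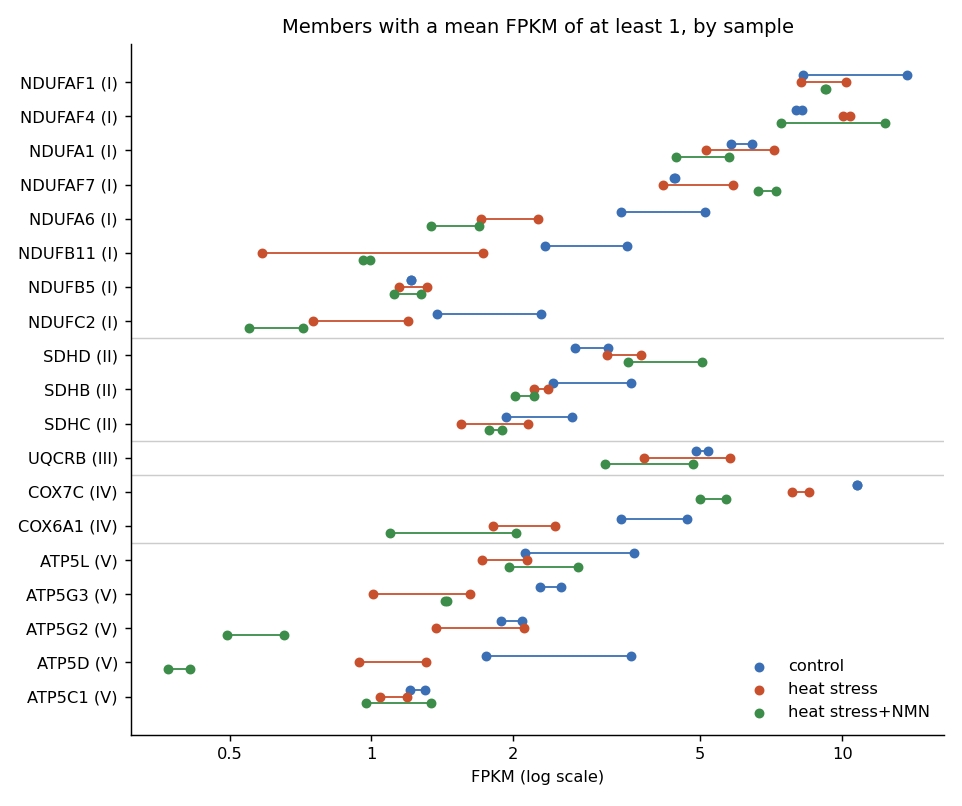
FPKM (horizontal axis, log scale) of the 19 genes with a mean of at least 1 in each of the 6 samples, with a line joining the 2 samples of a group and grey lines between complexes. COX7C steps from 10.8 in control to 5.0 in heat stress+NMN, while NDUFB5 stays between 1.12 and 1.31.

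Levels were also summed over each class on the FPKM scale, where the highest genes weigh most. The 30 accessory subunits of complex I summed to 25.4 and 27.7 FPKM in control, 17.4 and 19.4 in heat stress and 15.7 and 12.8 in heat stress+NMN samples, without overlap between the groups. The 7 subunits of complex IV summed to 16.4 and 19.0, 11.3 and 12.0, and 8.08 and 9.13 FPKM, also without overlap. For the 15 subunits of complex V the sums were 13.05 and 19.4, 13.04 and 10.4, and 9.54 and 7.45 FPKM, with a near touch between control and heat stress. The 4 subunits of complex II (7.29 to 9.57) and the 8 assembly factors of complex I (20.9 to 28.6) overlapped between groups. Over all 81 genes the sum was 94.2 and 113 FPKM in control, 80.8 and 81.0 in heat stress and 77.3 and 65.2 in heat stress+NMN samples. As a share of the summed nuclear FPKM, the 81 genes were at 0.157% and 0.179% in control. The share was 0.0741% and 0.140% in heat stress and 0.125% and 0.110% in heat stress+NMN samples. On that scale the heated groups overlapped. The sums of the classes were not scaled in this way, so their lack of overlap was seen only on the deposited FPKM. How often sums over other sets of genes lack overlap was not counted.

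**Figure D4:**
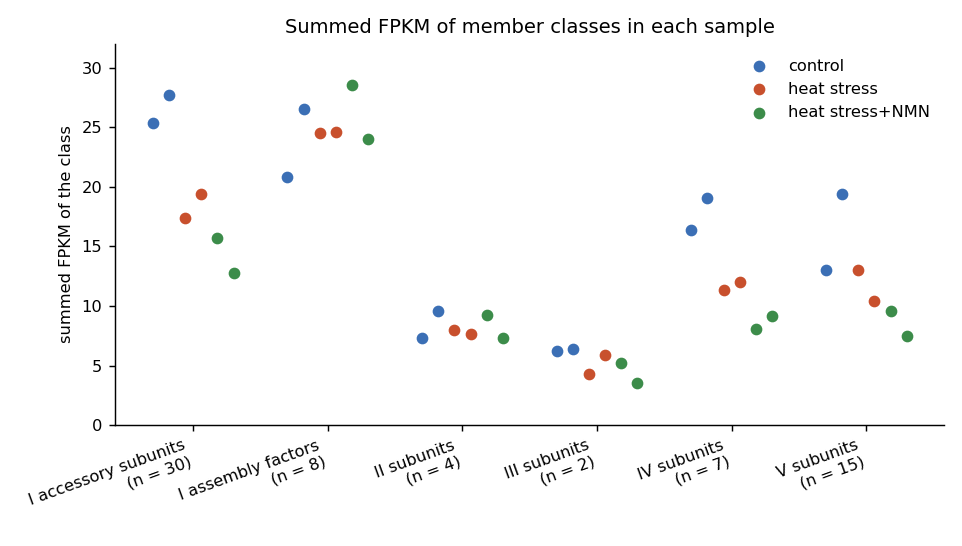
Summed FPKM (vertical axis, from 0) of 6 classes of genes in each of the 6 samples (points, coloured by group), with the number of genes of the class. The sums of the accessory subunits of complex I and of the subunits of complex IV are highest in the 2 control samples, and those of the assembly factors of complex I are not.

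The genes below 1 FPKM were compared in a fit of the 11651 genes with a mean of at least 0.1, which took in 42 of the 62. Their values rest on few fragments, so the calls are weaker evidence than those above. In heat stress against control 9 of the 42 were called lower and 1 higher, against 8.35% lower and 2.65% higher among all 6938 genes with a mean of 0.1 to 1 FPKM. In heat stress+NMN against heat stress 3 were called lower and 0 higher, against 5.13% and 1.83%, and in heat stress+NMN against control 11 lower and 0 higher, against 13.9% and 4.4%. NDUFV3 and NDUFA11, which are among both the 9 and the 11, passed the minimum of 0.1 FPKM only through the control group, which favoured these calls. The counts called were 7 to 15, 0 to 7 and 4 to 14 in the 3 comparisons when 1 sample was left out. Between the heated groups no gene was called without heat stress+NMN replicate 1 or without heat stress+NMN replicate 2, and 7 were without heat stress replicate 2. Against control, heat stress+NMN had 4 calls without either of its own samples and 7 without control replicate 2. None of the 42 had an adjusted P under 0.05 in any comparison. Of the 42 genes, 32 were lower in heat stress and 36 lower in heat stress+NMN than in control, with median log2 fold changes of -0.16 and -0.18, next to -0.02 and -0.05 over all 6938 genes of that level. So the genes on either side of 1 FPKM leaned the same way. The median was smaller below it, but adding 1 to FPKM shrinks the fold changes of low genes. The sizes of the medians above and below 1 FPKM therefore cannot be compared.

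The highest gene under 1 FPKM of each complex gave mixed values. In complex I, NDUFB10 had 0.764 and 1.30 FPKM in control, 0.518 and 1.56 in heat stress and 1.08 and 0.738 in heat stress+NMN samples, with overlap throughout. In complex II, SDHAF1, a factor that helps to insert iron-sulfur clusters into SDHB, was at 3.49 and 1.003 in control and 0.477 in heat stress replicate 1 and was listed at 0 in the other 3 samples. In complex III, UQCR10 was at 1.31 and 1.20 in control, 0.465 and 0.0880 in heat stress and 0.381 and 0.379 in heat stress+NMN samples, with control above the rest. In complex IV, COX5B was at 0.547 and 1.05, 0.507 and 0.499, and 0.686 and 0.539 FPKM, and in complex V, ATP5A1, the alpha subunit of the catalytic head, at 1.102 and 1.80, 0.368 and 0.739, and 0.969 and 0.745. Of these, SDHAF1, UQCR10 and ATP5A1 were called lower in heat stress against control, with log2 fold changes of -1.30, -0.84 and -0.65. The call of ATP5A1 was lost without control replicate 2 (-0.45) and without heat stress replicate 1 (-0.48). That of SDHAF1 was lost without control replicate 1 (-0.72) and without heat stress replicate 2 (-1.02). The SDHAF1 call was also lost without either heat stress+NMN sample, which left the log2 fold change as it was. UQCR10 kept its call with each sample left out.

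The other genes under 1 FPKM that were called in heat stress against control were accessory subunits of complex I and COX7A2 of complex IV. NDUFS5 was at 1.49 and 1.59 FPKM in control, 0.136 and 0.331 in heat stress and 0.374 and 0.0210 in heat stress+NMN samples, with control far above the rest and log2 fold changes of -1.05 and -1.1 against control. NDUFV3, at 0.404 and 0.416 in control, was at 0 to 0.0788 in the 4 heated samples. NDUFB9, NDUFA12, NDUFA11 and COX7A2 were also called lower in heat stress, with log2 fold changes of -0.50, -0.19, -0.27 and -0.55. Without heat stress replicate 1 the calls of NDUFB9 (-0.39), NDUFA11 (-0.16) and COX7A2 (-0.49) were lost. Those of NDUFB9 (-0.31), NDUFA12 (-0.14) and NDUFA11 (-0.22) were lost without control replicate 2, and that of NDUFA11 (-0.32) without control replicate 1. Those of NDUFA12 (-0.17) and COX7A2 (-0.62) were lost without heat stress replicate 2. When either heat stress+NMN sample was left out, the calls of NDUFB9 and NDUFA11 were lost at unchanged log2 fold changes. NDUFS5 and NDUFV3 kept their calls throughout. NDUFA2 was the one called higher, at 0.0507 and 0.175 FPKM in control, 1.05 and 0.476 in heat stress and 0.286 and 0.193 in heat stress+NMN samples (log2 fold change 0.65), and it was called lower in heat stress+NMN against heat stress (-0.49), as were NDUFAB1 (-0.30) and SDHA (-0.21). In heat stress against control, NDUFA2 was still called higher without heat stress replicate 1 (0.41) but not without control replicate 1 (0.57). Between the heated groups the calls of NDUFA2 (-0.25), NDUFAB1 (-0.27) and SDHA (-0.13) were lost without heat stress replicate 1. In heat stress+NMN against control the 11 genes called lower were SDHAF1, UQCR10, NDUFS5, NDUFV3, NDUFB9, NDUFA12, NDUFA11, NDUFS6, NDUFA7, NDUFV1 and ATP5G1. Of these, the calls of NDUFB9 and NDUFS6 were lost without heat stress replicate 1. Their log2 fold changes of -0.44 and -0.58 stayed as they were. NDUFS5, NDUFV3 and UQCR10 kept their calls with each sample left out, and the others of the 11 lost them in at least 1 such fit. NDUFV1 was the 1 core subunit of complex I among the 11. It was at 0.352 and 0.137 FPKM in control, 0.193 and 0.0828 in heat stress and listed at 0 in both heat stress+NMN samples. The genes of this group other than SDHAF1 and UQCR10, and ATP5I, which was at 2.79 FPKM in heat stress replicate 1 and at most 0.239 elsewhere, were named after their values were seen.

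The length of the transcripts went with these changes and is therefore given beside them. The longest annotated transcript of the 19 genes had a median of 933 nt, against 2941 nt for all 4713 tested genes, and 11 of the 19 were under 1000 nt, as were 468 of all. The median log2 fold change of those 468 genes was -0.22 in heat stress and -0.30 in heat stress+NMN against control, and that of the 11 genes of the chain was -0.27 and -0.35. Of the 468, 18.4% were called lower in heat stress, 28.6% in heat stress+NMN against control and 11.5% between the heated groups. As a description across the 4713 genes, which do not vary independently and share the 6 libraries, Spearman's rho between length and log2 fold change was 0.305 in heat stress against control, 0.276 in heat stress+NMN against heat stress and 0.397 in heat stress+NMN against control. Among the genes of the chain called lower, COX7C (1456 nt) and ATP5D (1299 nt) were below the median length of all tested genes. ATP5G2 (4478 nt), also called lower, was above it. Of the other genes of 1000 nt or more, SDHC (1335 nt), ATP5L (2722 nt), ATP5C1 (2723 nt) and NDUFAF1 (4260 nt) were not called. NDUFAF7 (3927 nt) was called higher. Tested genes from 1000 nt to under 2000 nt had medians of -0.084 in heat stress and -0.087 in heat stress+NMN against control. Of these, 15% and 23.8% were called lower. The part of transcript length in the results was not tested.

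**Figure D5:**
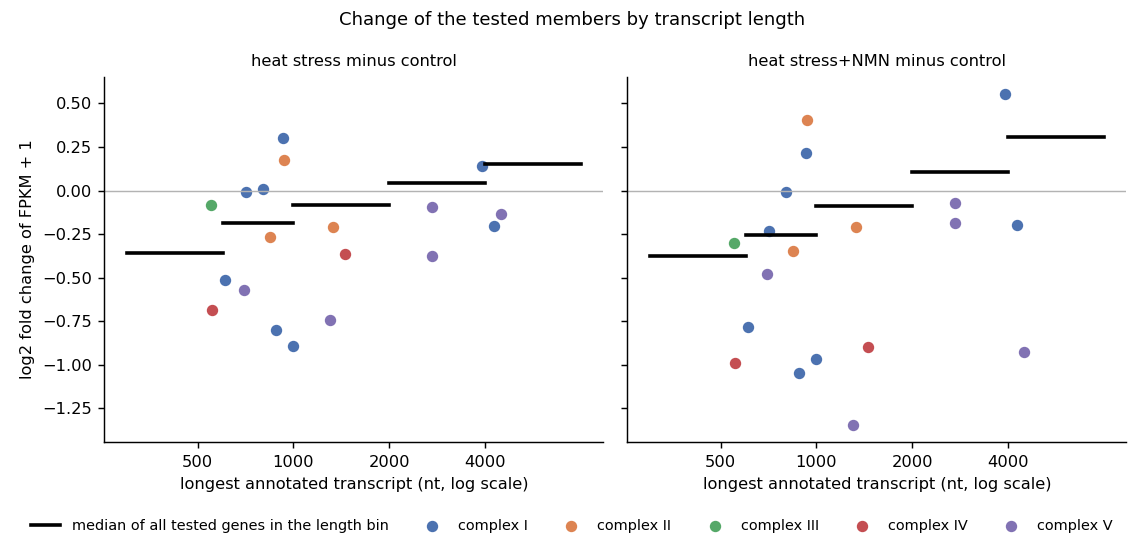
Log2 fold change of FPKM + 1 (vertical axis) of the 19 tested genes (points, coloured by complex) by the length of the longest annotated transcript (horizontal axis, nt, log scale) in heat stress and in heat stress+NMN, each against control, with black bars at the median of all tested genes in 5 bins of length. Short genes sit lower, with a median of -0.36 below 600 nt and 0.15 at 4000 nt or more in heat stress over all tested genes.

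Other values also moved with the groups. Of the 13 mitochondrially encoded subunits of the same complexes, 9 were called higher in heat stress and 11 in heat stress+NMN against control. The background was 12.7% and 25.6% called higher, and none of the 13 was called lower in any comparison. By smallest P, ND4, ATP6 and COX3 led in heat stress, with log2 fold changes of 0.75, 0.56 and 0.64, and ND6, ND4 and CYTB in heat stress+NMN against control, with 1.02, 0.89 and 0.68. The oocyte marker list moved as well. Of 9 tested markers, 4 were called lower in heat stress (GDF9, ZP3, ZP4 and ZAR1) and 6 in heat stress+NMN, both against control. The background there was 10.1% and 15.7% called lower. The sum of the cumulus and granulosa markers was 14.1 and 17.8 FPKM in control, 8.21 and 11.1 in heat stress and 5.68 and 11.7 in heat stress+NMN samples, most of it INHBA. Markers of theca cells summed to at most 0.0314 FPKM, of leukocytes to 0.474, of endothelium to 0.382 and of erythroid cells to 0.105 in any sample. The part of these in the results was not tested. With every sample scaled to the same median FPKM, 6, 2 and 9 of the 19 genes were called in the 3 comparisons. Of all 4713 tested genes, 663, 275 and 1204 were then called higher and 450, 336 and 744 lower.

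Genes that serve the chain but fall outside the rule were taken from lists of assembly factors, electron carriers, biogenesis regulators and the tricarboxylic acid cycle. Of 5 tested assembly factors for all complexes, 1 was called in heat stress and 2 in heat stress+NMN against control, all lower. The background was 10.1% and 15.7% called lower, and 0 of the 5 were called between the heated groups. COX17, the copper chaperone of complex IV, was at 2.44 and 2.55 FPKM in control, 1.13 and 1.39 in heat stress and 1.06 and 1.498 in heat stress+NMN samples, with control above the rest. COX17 had a log2 fold change of -0.63 in both heated groups against control (adjusted P = 0.127 and 0.0390 by limma). SCO2, another copper chaperone of complex IV, was at 3.50 and 1.16, 1.22 and 1.78, and 0.659 and 0.517 FPKM in the 3 groups, with a log2 fold change of -0.97 in heat stress+NMN against control (adjusted P = 0.0971 by limma). Among 7 tested assembly factors under LOC identifiers, all of complex IV, 4 were called lower in heat stress (background 10.1%), 3 in heat stress+NMN against control (15.7%) and 2 between the heated groups (6.45%). They included COA4 (LOC100514530), at 8.04 and 12.9, 5.50 and 3.35, and 1.65 and 1.62 FPKM in the 3 groups.

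Of 6 tested electron carriers and enzymes that handle them, 1 was called, higher in both heated groups against control (background 12.7% and 25.6%). This was COQ10B, a coenzyme Q-binding protein, at 6.37 and 5.03 FPKM in control, 7.62 and 8.0 in heat stress and 9.07 and 8.81 in heat stress+NMN samples, where the groups did not overlap and rose in that order. Its log2 fold change against control was 0.40 in heat stress (adjusted P = 0.184) and 0.58 in heat stress+NMN (adjusted P = 0.0389 by limma). Cytochrome c itself (CYCS), which carries electrons from complex III to complex IV, was at 45.1 to 55.2 FPKM in the 6 samples and was not called. Against the same background, 1 of 2 tested regulators of mitochondrial biogenesis was called higher in both heated groups against control. This was GABPA, a subunit of the factor whose motif was searched above. It was at 2.06 and 1.92 FPKM in control, 3.17 and 3.26 in heat stress and 3.69 and 2.498 in heat stress+NMN samples, with log2 fold changes against control of 0.50 and 0.44 (adjusted P = 0.184 and 0.108 by limma). NRF1 was at 0.115 to 0.244 FPKM and TFAM, which maintains mitochondrial DNA, at 0 to 0.0815, and neither was tested. In the tricarboxylic acid cycle and pyruvate dehydrogenase 6 genes were tested, and 1 was called higher and 0 lower in each comparison, which is near the background. PDHX, which holds the pyruvate dehydrogenase complex together, was at 2.24 and 2.28, 3.02 and 2.92, and 3.61 and 3.67 FPKM in the 3 groups, with log2 fold changes against control of 0.28 (adjusted P = 0.204) and 0.51 (adjusted P = 0.0309 by limma). IDH3A, the catalytic subunit of a dehydrogenase that supplies NADH to complex I, was at 4.61 and 4.40, 3.75 and 4.25, and 5.53 and 5.33 FPKM and was called higher in heat stress+NMN than in heat stress (0.37, adjusted P = 0.340 by limma).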

How the data were processed

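Porcine oocyte RNA was sequenced in 6 samples, which the labels place in 3 groups of 2. Reads were trimmed with cutadapt and aligned with tophat2 to susScr11 in the methods of the study, and the submitters' processing notes name Cufflinks 2.2.1, Cuffnorm and Cuffdiff. The authors deposited FPKM values of 29861 genes in 6 samples. Their log2 fold changes, P-values and q-values and their lists of changed genes were not used. No counts were used, so the depth is unknown. Low FPKM values were not whole multiples of a smallest step, and reads could not be recovered from them.

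FPKM was log2-transformed after adding 1, and the 4713 genes with a mean of at least 1 FPKM were fitted with limma 3.58.1 in R 4.3.3 (all 6 samples, 3 groups, empirical Bayes with a trend, Benjamini-Hochberg adjustment). On simulated data of 4713 genes in the design of heat stress against control, 197 of 200 changed genes had a P under 0.05, as did 4.25% of the others. The noise was normal, with the spread that limma itself estimated. The changes set were larger than any among the 19 genes in that comparison. The simulation therefore checked that the fit ran as intended, and not its power or error rate in these data. Python 3.11.15 and pandas 2.3.3 were used otherwise. The table's loci enclosed the annotated gene of that name for 29855 of 29861 genes in the RefSeq annotation of Sscrofa11.1, and 57 of the 81 genes, 13 of the 19 tested, were alone at their locus. A longest annotated transcript was taken as the length of a gene. Genes were named with values in every sample if their mean was at least 1 FPKM or if they were the highest of their complex below it, and in the pathway lists if their P was under 0.05 in any comparison (at most 3 per list and comparison, smallest P first). Not every gene of the rule is reported here by name. The genes and lists were chosen with earlier results of these data known, and genes under LOC identifiers were added after their values were seen.

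The alternatives were a pseudocount of 0.1, a minimum of 0.1 or 5 or none, quantile normalization, scaling to the same median or to the same sum of nuclear FPKM, a fit with a replicate block, a fit of the compared groups alone, moderation without a trend, leaving out each sample, and, chosen after seeing the data, only genes alone at their locus and leaving out each sample in the fit with a minimum of 0.1.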

Additional observations from a re-analysis of the deposited data

How the results depend on the processing

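Of the values of single genes that were called, 79 of 91 kept their call in heat stress against control under all alternatives and left-out samples together, 34 of 47 in heat stress+NMN against heat stress and 123 of 137 in heat stress+NMN against control, and none changed its direction. These counts do not show how firm a call is, because several settings cannot change a log2 fold change or its direction. Such settings were the other minimums, the replicate block, the fit of the compared groups alone and moderation without a trend. Leaving out a sample of the third group is another. Of the 6 genes called in heat stress against control, NDUFA6 alone kept its call with each sample left out. Where a value is given below, the cause was not tested. A minimum of 5 FPKM left 5 genes, of complexes I and IV only, so complexes II, III and V have no value there. Lower minimums tested more of the 81. The depth is unknown, and low values rest on few fragments. The counts of called genes moved to 16, 6 and 20 of 61 in the 3 comparisons with a minimum of 0.1 FPKM. Of all 11651 genes tested there, 1865, 1161 and 3236 were called. With no minimum the counts were 18 and 20 of 80 in heat stress and in heat stress+NMN against control. Of all 20552 genes, 1007 and 1666 were then called higher and 1381 and 2034 lower. With a minimum of 5 FPKM the counts were 1, 1 and 2 of 5. Of all 1672 genes, 287, 159 and 561 were then called higher and 181, 107 and 230 lower. The count moved to 0 in heat stress+NMN against heat stress with samples scaled to the same sum of nuclear FPKM. Of all 4713 genes, 182 were then called higher and 87 lower. With the replicate block the counts of the 19 genes were 6, 3 and 9 (4 instead of 5 at an adjusted P under 0.05). Samples with the same number, each taken relative to its group mean, correlated at -0.032, -0.014 and 0.008. The numbers were therefore not taken as pairs. Leaving out 1 sample gave 3 to 7 calls in heat stress. Among the 42 genes with a mean of 0.1 to 1 FPKM, leaving out 1 sample gave 7 to 15, 0 to 7 and 4 to 14 calls in the 3 comparisons.

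Scaling to the same sum of nuclear FPKM moved the median of all tested genes by -0.27 in heat stress against control and by 0.28 in heat stress+NMN against heat stress. The median of the 19 genes became -0.52 and 0.17, which relative to all tested genes was -0.30 and -0.19, against -0.26 and -0.16 without it. COX7C became -0.69 in heat stress against control and -0.21 in heat stress+NMN against heat stress and was called in neither. The medians by complex became -0.43 (I), -0.46 (II), -0.80 (IV) and -0.60 (V) in heat stress against control and 0.14 (I), 0.25 (II) and -0.15 (IV) in heat stress+NMN against heat stress. Single genes that were not called changed sign, to -0.029 for NDUFAF4, -0.14 for NDUFAF7, -0.087 for SDHD and -0.17 for NDUFB5 in the former, and to 0.26 for NDUFAF4, 0.11 for NDUFA1, 0.072 for UQCRB, 0.17 for SDHB, 0.045 for NDUFB11 and 0.17 for NDUFB5 in the latter.

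Other settings moved medians of log2 fold changes. In heat stress against control, the median of all members was -0.0079 with a minimum of 5 FPKM. Complex III had -0.46 both with a minimum of 0.1 FPKM and with none, complex IV -0.33 and -0.31, and complex V -0.14 with none. In heat stress+NMN against heat stress, complex IV had -0.040 and -0.020 with these minimums. Genes alone at their locus had -0.21 over all complexes and -0.61 in complex V. In heat stress+NMN against control the median was -0.16 with no minimum and -0.48 for genes alone at their locus. There complex I had 0.011 with a minimum of 5 FPKM and -0.40 for genes alone at their locus. Complex IV had -1.18 with a pseudocount of 0.1 FPKM, -0.27 with a minimum of 0.1 FPKM and -0.23 with none, and complex V had -0.70, -0.25 and -0.14 in the same order and -0.93 for genes alone at their locus. Quantile normalization changed the sign of NDUFAF1 (-0.047) and NDUFB5 (0.0083) in heat stress+NMN against heat stress and of NDUFB5 (0.025) against control. Scaling to the same median FPKM changed that of NDUFA1 (0.0096) in heat stress against control and of NDUFAF1 (-0.013) and SDHC (-0.015) between the heated groups.

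Leaving out 1 sample at a time gave these lowest and highest values. In heat stress against control the median was -0.36 to -0.088 over all members, -0.28 to 0.032 in complex I, -0.37 to -0.046 in complex II and -0.62 to -0.12 in complex V. The log2 fold change was -0.54 to 0.13 for NDUFAF1, -0.21 to 0.20 for NDUFA1, -0.066 to 0.34 for NDUFAF7, -0.33 to 0.16 for UQCRB, -0.33 to 0.061 for ATP5G2 and -0.046 to 0.064 for NDUFB5. In heat stress+NMN against heat stress the median of complex II was -0.12 to 0.14. The log2 fold change was -0.13 to 0.15 for NDUFAF1, -0.41 to 0.25 for NDUFAF4, -0.46 to 0.034 for UQCRB, -0.15 to 0.16 for SDHC, -0.10 to 0.28 for ATP5G3, -0.46 to 0.32 for NDUFB11, -0.074 to 0.035 for NDUFB5 and -0.10 to 0.15 for ATP5C1. In heat stress+NMN against control the median was -0.53 to -0.17 over all members, -0.41 to -0.089 in complex I and -0.37 to -0.044 in complex II. The log2 fold change was -0.53 to 0.14 for NDUFAF1, -0.11 to 0.55 for NDUFAF4, -0.47 to 0.092 for ATP5L, -0.062 to 0.041 for NDUFB5 and -0.19 to 0.053 for ATP5C1.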
